A study of Arabidopsis thaliana with 21 samples.

Results

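The 6 libraries described here are RNA-seq libraries of Arabidopsis thaliana roots taken 24 h and 12 h after a mock treatment, 3 libraries at each time. They were chosen by their labels, out of 21 libraries in the series. The other libraries came from roots taken before treatment (0 h), from mock roots at 6 h, and from roots given AtCEP5, a small secreted peptide named after the C-terminally encoded peptides (CEPs), for 6, 12 or 24 h, again 3 per group. By their labels the mock roots are the counterpart of the peptide-treated ones, so 24 h against 12 h in mock addresses what changed over that interval without the peptide. Time since the mock treatment, hour of day and harvest cannot be told apart in it. The labels used here do not state the plants' background, age, medium, light regime, clock time of harvest or composition of the mock treatment. Whether the replicates were grown as separate cultures is not stated either, so the p-values given here speak for the variation among these libraries alone, part of which may be technical.

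As background, a root takes up iron from poor soils by a reduction strategy: the plasma membrane reductase FRO2 converts ferric to ferrous iron, the transporter IRT1 imports it, and the transcription factor FIT acts with bHLH partners of subgroup Ib to switch both genes on. The circadian clock runs in roots as in shoots, as a loop in which the MYB-like repressors CCA1 and LHY peak around dawn and members such as TOC1 and GI follow later in the day. A further set of plant genes, among them zinc finger, WRKY and ERF factors and calmodulin-like proteins, responds within minutes to touch, wounding or elicitors.

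The 6 libraries held 12994130 to 14333145 counts each, and ribosomal RNA genes took 0.27 to 0.47% of them. Pearson correlations of log2 CPM (each gene's counts scaled to a common library size with TMM factors) between the 6 lay between 0.9692 and 0.9843. On the first principal component of the 6 libraries (28.5% of the variance), mock 24 h replicate 1 stood apart at −51.8, against 1.84 to 19.5 for the others. The second component (27.6%) placed mock 24 h replicates 2 and 3 at −28.8 and −35.4 and the 12 h libraries at 14.9 to 25.9, with mock 24 h replicate 1 at 7.62. Counts are therefore also given without that library. The labels name the cell type as root meristem cell. Of the 16 meristem markers, including the stem cell regulators PLT1, WOX5, SHR and SCR, each had more than 5 reads over the 6 libraries. The endodermal barrier gene CASP1, the suberin gene CYP86A1 and the root hair expansin EXPA7, which mark differentiated tissue, were also present, at median levels of 92.7, 157 and 49.6 FPKM, against 3.65 for PLT1, so the RNA was not from meristem alone.

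In mock roots at 24 h against 12 h, 175 of 19938 genes tested passed an adjusted p of 0.05 (0.878%), of which 130 were higher (0.652%) and 45 lower (0.226%). The test was edgeR's quasi-likelihood test on the deposited counts, with all 21 libraries in 1 fit and Benjamini-Hochberg adjustment over all genes tested. The median log2 fold change of all genes tested was 0.002, and the median size of the change among called genes was 1.23 on the log2 scale. In 120 of the called genes it was at least 1 on the log2 scale, 91 higher and 29 lower. At an unadjusted p of 0.05, 1518 genes passed. In 174 of the 175 called genes all 3 libraries of 1 time lay above all 3 of the other. The exception was AT2G44940, annotated as an integrase-type DNA-binding protein, with 35.9, 26.1 and 29.3 CPM at 24 h against 56.3, 53.3 and 35.6 CPM at 12 h. A call favours such separation, so it adds no support of its own, here or for the single genes below. The share of all genes tested with groups apart is not given here. Of the called genes, 77 have no symbol in the annotation and 33 overlap a gene on the opposite strand, whose counts are uncertain because the counting's strand setting is unknown here. Among the genes described, this holds for BHLH38, BHLH101, MYB10, FRO3, FER1, F6'H1, LNK2, WRKY33, TCH3, GolS4, CYP86A2, QRT1, AILP1, ASN1, NRT1.8, AT3G55920 and the FAR1 gene of suberin synthesis, while SP1L2, LNK4 and AT5G18840 overlap a gene on the same strand.

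**Figure D1:**
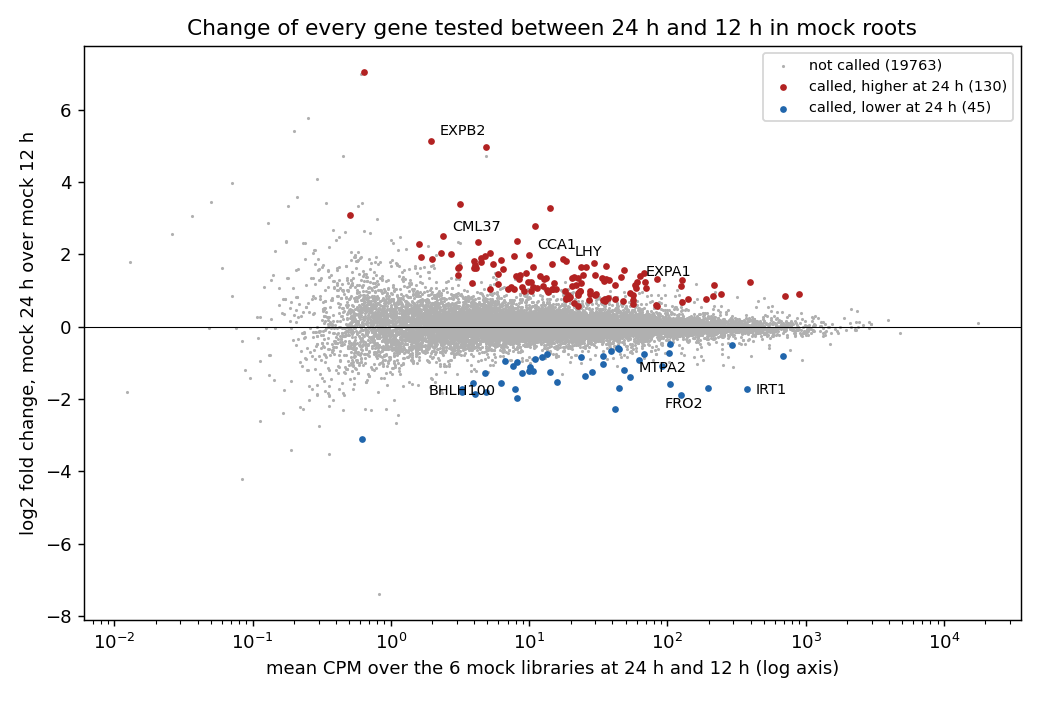
Log2 fold change of mock 24 h over mock 12 h (vertical axis) against mean CPM over the 6 libraries (horizontal log axis), 1 point per gene tested. Red points are the 130 genes called higher at 24 h, blue points the 45 called lower and grey points the rest, with the grey band centred on 0.

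The count varied with single libraries. Leaving out mock 24 h replicate 1 gave 188 calls (117 higher, 71 lower), of which 124 were among the 175. Leaving out mock 12 h replicates 1, 2 or 3 or mock 24 h replicate 2 gave 73, 79, 67 and 89 calls, and leaving out mock 24 h replicate 3 gave 139. In all 6 such fits 50 of the 175 genes passed, 41 higher and 9 lower, and no called gene changed direction.

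Of the 36 gene lists examined, iron held the most lower transcripts. Of 24 tested members of an iron list, 9 fell and none rose (37.5% lower, against 0.226% of all genes), with a median log2 fold change of −0.68 over the list against 0.002 over all genes, and 23 of the 24 had a value below 0. The 9 that fell were IRT1, FRO2, FRO3, CYP82C4, BHLH38, BHLH39, BHLH100, MYB10 and AT1G47400, with log2 fold changes of −1.9 to −0.759. In bulk RNA, fewer cells of a type and less RNA per cell cannot be told apart, here and in what follows.

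Values per library are given in the order of replicates 1, 2 and 3. IRT1, the root's main ferrous iron importer (AT4G19690, chromosome 4, 10707344 to 10709015 on TAIR10.1), had 191, 186 and 149 CPM at 24 h, against 513, 620 and 589 CPM at 12 h. All 3 libraries at 24 h lay well under the lowest at 12 h, and IRT1 fell by 1.71 ± 0.36 on the log2 scale (± SE, edgeR adjusted p = 0.0196). FRO2, the ferric chelate reductase that supplies IRT1 (AT1G01580, chromosome 1, 208995 to 213082), had 92.9, 109 and 78.1 CPM at 24 h, against 257, 296 and 354 CPM at 12 h. Its groups were as far apart as those of IRT1, and it fell by 1.69 ± 0.28 (adjusted p = 0.00221). CYP82C4, a cytochrome P450 that makes the iron-mobilising coumarin sideretin, had 51.9, 52.8 and 54.3 CPM at 24 h, against 149, 186 and 258 CPM at 12 h. Its 24 h libraries were nearly equal while those at 12 h spread, and it fell by 1.9 ± 0.35 (adjusted p = 0.00724). FRO3, a reductase of the same family that acts at mitochondria, had 49.9, 50.4 and 51.3 CPM at 24 h, against 85.1, 84.5 and 86.9 CPM at 12 h. The spread within each time was small beside the step between them, with a fall of 0.76 ± 0.17 (adjusted p = 0.0274). FRO3 nonetheless lost the call in every fit that left out 1 mock library (adjusted p 0.0695 to 0.121). Among such fits IRT1 passed only without mock 24 h replicate 1.

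The regulators moved the same way. BHLH39, a subgroup Ib factor that pairs with FIT (AT3G56980, chromosome 3, 21086390 to 21087710), had 16.4, 12.4 and 14.1 CPM at 24 h, against 40.1, 37.2 and 32.9 CPM at 12 h, and fell by 1.36 ± 0.23 (adjusted p = 0.00313). Its neighbour and paralog BHLH38 had 10.2, 9.2 and 5.15 CPM at 24 h, against 26.5, 23.9 and 21.2 CPM at 12 h, and fell by 1.54 ± 0.30 (adjusted p = 0.0113). BHLH100 of the same subgroup had 4.61, 2.91 and 3.5 CPM at 24 h, against 11.8, 12 and 12.9 CPM at 12 h, and fell by 1.74 ± 0.30 (adjusted p = 0.00321). In each of the 3 the groups were clear of each other. BHLH101, the remaining member of the subgroup, had 1.41, 2.91 and 1.86 CPM at 24 h, against 2.41, 2.44 and 3.43 CPM at 12 h, and its groups overlapped (log2 fold change −0.41, adjusted p = 0.975). MYB10, a factor of the iron deficiency response, fell by 1.22 (adjusted p = 0.0176). FIT itself had 131, 98 and 74 CPM at 24 h, against 154, 155 and 153 CPM at 12 h, which did not pass (−0.61 ± 0.17, adjusted p = 0.121) although the groups did not overlap. AT1G47400, listed among small iron-responsive peptide genes, had 1.64, 1.83 and 1.07 CPM at 24 h, against 7.14, 4.51 and 3.43 CPM at 12 h, and fell by 1.72 (adjusted p = 0.0257).

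**Figure D2:**
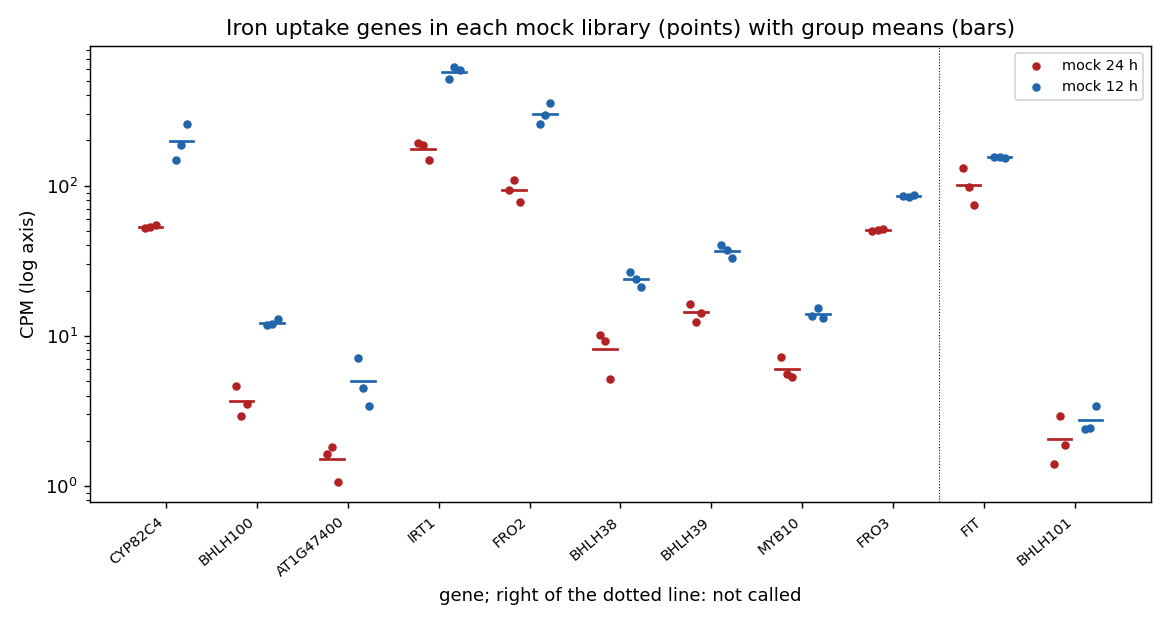
CPM on a log axis of 11 iron genes in each library, mock 24 h (red) left of mock 12 h (blue), with a bar at each group mean. In the 9 genes left of the dotted line, which were called, no red point reaches a blue one, whereas in BHLH101 they overlap.

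Not all iron genes moved. IRT2, a paralog of IRT1, had 21.9, 15.7 and 11.4 CPM at 24 h, against 17.9, 18 and 18.6 CPM at 12 h (log2 fold change −0.16, adjusted p = 1). The proton pump AHA2 (−0.02) and the coumarin enzyme F6'H1 (−0.05) also had adjusted p values of 1. FER1, the iron store ferritin, which responds to iron in the opposite sense to the uptake genes, was the only list member above 0, with 222, 221 and 181 CPM at 24 h, against 101, 141 and 190 CPM at 12 h. Its groups overlapped and it did not pass (0.53 ± 0.22, adjusted p = 0.478). Without mock 24 h replicate 1, 8 members passed as lower, 7 of them among the 9 called with all libraries, while FRO3 and AT1G47400 did not pass. Leaving out mock 12 h replicate 1, 2 or 3 or mock 24 h replicate 2 or 3 left 4, 4, 5, 5 and 4, and FRO2, BHLH39 and BHLH100 passed in each of these fits.

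Over the mock series IRT1 and FRO2 were highest at 12 h. IRT1 had 7.81 to 44.1 CPM before treatment, 150 to 291 at 6 h, 513 to 620 at 12 h and 149 to 191 at 24 h. FRO2 likewise had 6.6 to 16.1, 79 to 162, 257 to 354 and 78.1 to 109 CPM at those times. The level at 24 h thus lay above that before treatment in both genes. BHLH39 was highest at 6 h, with 51.5 to 59.7 CPM, after 15.6 to 28.6 before treatment, and its 12.4 to 16.4 CPM at 24 h overlapped the level before treatment. No test of these other intervals is given.

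Further metal genes changed as well. MTPA2, a zinc transporter that loads vacuoles and belongs to the FIT-dependent iron response (AT3G58810), had 35.7, 25.4 and 27 CPM at 24 h, against 69.6, 79.7 and 83.8 CPM at 12 h, and fell by 1.41 ± 0.19 (adjusted p = 0.000398, passing without any 1 library). Of genes chosen after their values were seen, AT3G58060, annotated as a cation efflux family protein, fell by 1.81, and AT3G07720, a kelch repeat protein, fell by 1.59. The zinc transporter ZIP3 rose by 1.05, the metal-nicotianamine transporter YSL3 by 0.75 and the iron superoxide dismutase FSD1 by 0.89, to 1340, 975 and 1200 CPM at 24 h, against 601, 715 and 583 CPM at 12 h. HIPP22, a heavy metal-associated domain protein named by rule, rose by 1.9. Without mock 12 h replicate 3, AT3G58060, FSD1 and HIPP22 did not pass, nor did AT3G58060 without mock 24 h replicate 3 or FSD1 and HIPP22 without mock 12 h replicate 1.

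Promoter sequence was read for the genes tested, from 250 bases before to 50 bases after the annotated gene start, 300 bases in all, for 19892 genes on the RefSeq TAIR10.1 genome. On either strand, the G-box CACGTG, a core site of bHLH and bZIP factors, stood in 13.3% of the promoters of genes called lower (6 of 45), in 13.1% of those called higher (17 of 130) and in 8.7% of all. The 6 lower genes included BHLH38, BHLH100 and FRO3 of the iron list, and the 17 higher ones CCA1, LHY, LNK2 and ZAT10. The evening element AAATATCT, a clock-regulated site, stood in 8.89% of the promoters of genes called lower, 2.31% of those called higher and 5.83% of all. The CCA1-binding site AAAAATCT stood in 2.22%, 7.69% and 7.92%. The letters of the evening element and the CCA1-binding site do not let their matches overlap, and the G-box reads the same on both strands. None of the 4 clock genes called higher held an evening element or a CCA1-binding site. These are matches of letters in a short window and were not tested. Where in its window the G-box of LNK2 lies, and whether regulators not called carry one, is not given here. CCA1, LHY, BHLH38 and BHLH100 carry the G-box within the 250 bases before the gene start. These bases are printed for the 4 genes, in lower case with the G-box in capitals. The printed stretch of BHLH38 lies at chr3:21085246-21085495, that of BHLH100 at chr2:17199455-17199704 and that of LHY at chr1:37872-38121, each on the reverse strand. The stretch of CCA1 lies at chr2:19245341-19245590 on the forward strand.
BHLH38: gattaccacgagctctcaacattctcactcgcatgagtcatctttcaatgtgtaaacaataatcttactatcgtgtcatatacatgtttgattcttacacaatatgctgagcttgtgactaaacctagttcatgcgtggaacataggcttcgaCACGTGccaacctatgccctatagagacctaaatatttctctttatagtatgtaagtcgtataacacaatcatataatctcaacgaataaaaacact
BHLH100: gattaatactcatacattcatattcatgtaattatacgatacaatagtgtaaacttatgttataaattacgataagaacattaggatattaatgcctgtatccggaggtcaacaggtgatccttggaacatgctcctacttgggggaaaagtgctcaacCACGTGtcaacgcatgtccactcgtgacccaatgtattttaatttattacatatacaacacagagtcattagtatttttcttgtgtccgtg
CCA1: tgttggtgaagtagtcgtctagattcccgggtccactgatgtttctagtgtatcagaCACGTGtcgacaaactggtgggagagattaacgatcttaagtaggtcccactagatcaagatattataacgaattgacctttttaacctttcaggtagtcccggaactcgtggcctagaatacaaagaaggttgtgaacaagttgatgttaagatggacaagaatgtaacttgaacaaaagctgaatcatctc
LHY: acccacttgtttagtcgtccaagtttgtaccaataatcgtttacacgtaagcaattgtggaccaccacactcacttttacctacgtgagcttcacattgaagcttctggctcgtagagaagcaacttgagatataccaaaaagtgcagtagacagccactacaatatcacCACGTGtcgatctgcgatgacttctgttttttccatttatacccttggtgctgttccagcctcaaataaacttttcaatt

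Of 29 tested members of a clock list 4 rose and none fell (13.8% higher, against 0.652% of all genes), while the list's median log2 fold change was −0.02, with 14 members above and 15 below 0. The 4 were CCA1, LHY, LNK2 and LNK4, the last pair coding for coactivators that act with the morning MYB factors. CCA1 (AT2G46830, chromosome 2, 19245591 to 19248915) had 17.7, 17.1 and 12.7 CPM at 24 h, against 5.13, 4.66 and 2.24 CPM at 12 h. The lowest 24 h library lay well above the highest at 12 h, and CCA1 rose by 1.98 ± 0.32 (edgeR adjusted p = 0.00187). Its partner LHY (AT1G01060, chromosome 1, 33365 to 37871) had 26.6, 34.9 and 24.9 CPM at 24 h, against 13.4, 6.21 and 5.1 CPM at 12 h. The 12 h libraries spread more here but stayed below those at 24 h, and LHY rose by 1.81 ± 0.35 (adjusted p = 0.0106). LNK2 had 15.9, 21.1 and 19.9 CPM at 24 h, against 8, 6.72 and 7.69 CPM at 12 h, and rose by 1.35 ± 0.27 (adjusted p = 0.0146). LNK4 had 5.23, 2.57 and 1.5 CPM at 24 h, against 0.854, 0.961 and 0.699 CPM at 12 h, and rose by 1.87 ± 0.44 (adjusted p = 0.039). In all 4 the groups did not overlap.

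The other 25 members did not pass. With 3 libraries a time, groups can lie apart by chance, so separation in genes not called is only a description. PRR7, a morning-to-midday repressor of CCA1 and LHY, had 13.4, 14.5 and 11.7 CPM at 24 h, against 8.39, 9.01 and 7.27 CPM at 12 h, with no overlap but an adjusted p of 0.29 (0.68 ± 0.23). TOC1, the evening repressor, had 48.9, 64 and 63.4 CPM at 24 h, against 76.7, 75.4 and 73.5 CPM at 12 h, again apart but not called (−0.36 ± 0.13, adjusted p = 0.385). ELF4, a part of the evening complex, had 184, 113 and 127 CPM at 24 h, against 203, 206 and 213 CPM at 12 h (−0.55 ± 0.29, adjusted p = 0.719). PRR5 (−0.42, adjusted p = 0.526) and GI (−0.23, adjusted p = 0.962) overlapped between the times. CCA1 alone passed without any 1 of the 6 libraries, the number of passing members lying between 1 and 3. It was 1 without mock 12 h replicate 2 or 3 or mock 24 h replicate 2, 2 without mock 12 h replicate 1, and 3 without mock 24 h replicate 1 or 3.

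**Figure D3:**
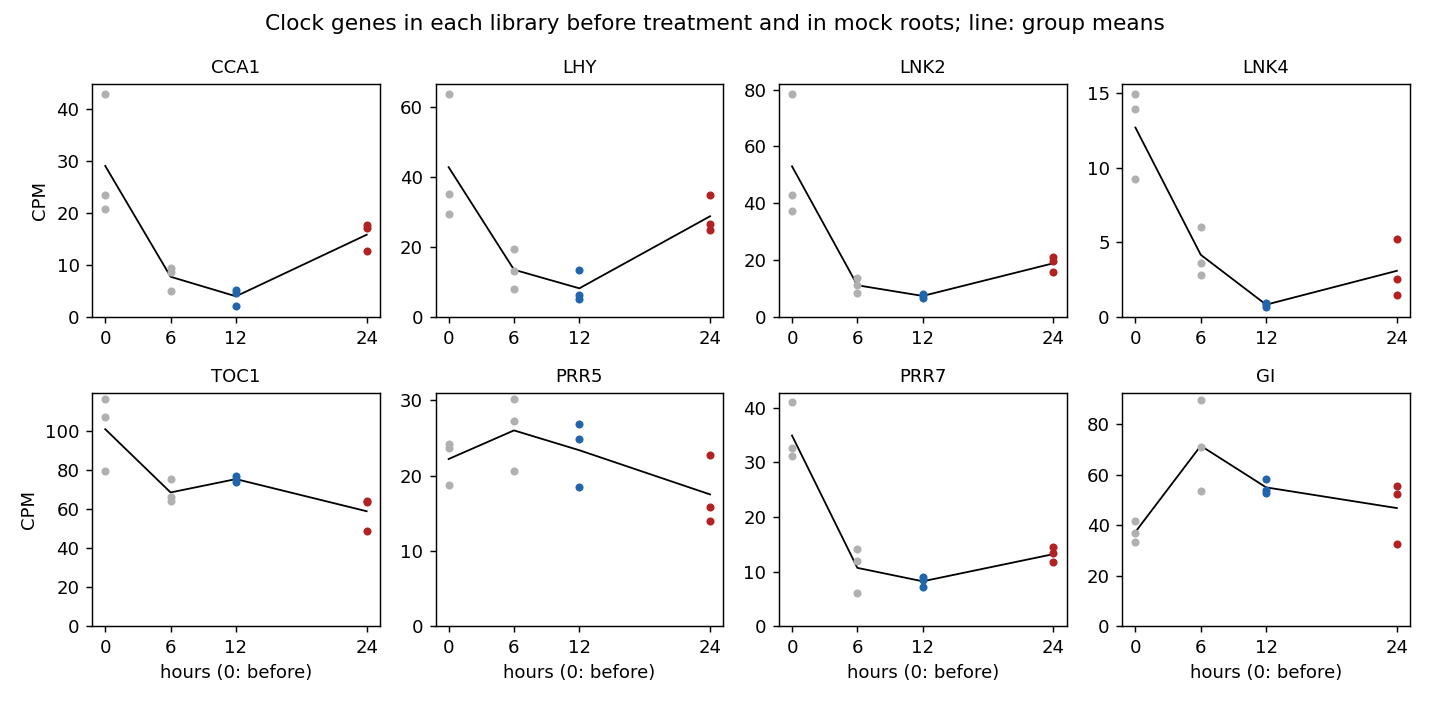
CPM of 8 clock genes in each library (points) before treatment (0 h) and at 6, 12 and 24 h of mock, with lines through the group means; each vertical axis starts at 0. CCA1, LHY, LNK2 and LNK4 are lowest at 12 h, and their 24 h points lie above the 12 h points but mostly under those at 0 h.

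The level of CCA1 before treatment was 20.8 to 42.8 CPM, above the 12.7 to 17.7 CPM of mock roots at 24 h, 24 h later. LHY had 29.5 to 63.7 CPM before treatment, which overlapped its 24 h values, and LNK2 had 37.5 to 78.5 CPM, which did not. The groups 24 h apart therefore did not all return to the same level.

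Of 17 tested members of a cell wall expansion list 4 rose and none fell, where 0.652% of all genes tested rose. The other 13 did not pass and the list's median was 0.07, while all 4 that rose passed without any 1 library. EXPA1, an expansin that loosens the wall during growth (AT1G69530, chromosome 1, 26141726 to 26143538), had 79.8, 72.4 and 102 CPM at 24 h, against 35.3, 33.4 and 39.4 CPM at 12 h, and rose by 1.24 ± 0.17 (adjusted p = 0.000557). EXPA10 had 19, 17.6 and 17.3 CPM at 24 h, against 9.47, 7.39 and 9.65 CPM at 12 h, and rose by 1.02 ± 0.16 (adjusted p = 0.00126). In both the 2 times were well separated. The xyloglucan endotransglucosylase genes XTH22, known as the touch gene TCH4, and XTH24 rose by 1.74 ± 0.31 (adjusted p = 0.00432) and 1.12 ± 0.18 (adjusted p = 0.00196). The other XTH genes of the list, XTH4, XTH9, XTH15, XTH17, XTH18, XTH19, XTH20 and XTH31, lay between −0.24 and 0.23, with none passing. The cellulose synthases CESA1, CESA3 and CESA6 lay between −0.04 and 0.07. Outside the list the XTH genes XTR6 and XTH26, picked once their values were known, were also called higher. Of the 6 fits that left out 1 library, XTR6 passed in 3 and XTH26 in 2. Whether these genes overlap others is not given here.

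Outside that list the largest change of a gene named by rule was that of EXPB2, a beta-expansin, with 4.45, 4.06 and 2.86 CPM at 24 h, against 0, 0 and 0.28 CPM at 12 h. Its fitted log2 fold change was 5.14 ± 0.79 (adjusted p = 0.00222) and depends on how near-zero counts are treated. EXLA3, an expansin-like gene, rose by 1.72 (adjusted p = 0.044). XTH14, a root hair xyloglucan enzyme, had 251, 156 and 128 CPM at 24 h, against 105, 106 and 107 CPM at 12 h, and rose by 0.75 (adjusted p = 0.027). Mock 24 h replicate 1 was the highest, and XTH14 did not pass without it or without any of the 12 h replicates 1, 2 and 3 (adjusted p up to 0.153). The summed level of the 13 root hair markers was 545 to 939 CPM at 24 h and 530 to 550 CPM at 12 h, sums that include XTH14 itself. PERK4, a receptor-like kinase with an extensin-like domain, rose by 1.65, the peroxidase AT2G18150 by 1.66 and the peroxidase AT2G38390 by 1.24, the last to 742, 482 and 441 CPM at 24 h, against 214, 263 and 229 CPM at 12 h. Both peroxidases, picked once their values were known, passed without any 1 library, while PERK4 did not pass without mock 24 h replicate 3 or mock 12 h replicate 1 or 3, and EXLA3 passed only without mock 24 h replicate 1.

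Of 12 tested members of an immunity and wounding list 4 rose and none fell, where 0.652% of all genes tested rose. The other 8 did not pass, 4 of the 12 lay below 0, and the list median was 0.49. ZAT10, a C2H2 zinc finger repressor (AT1G27730, chromosome 1, 9648021 to 9649323), had 38.1, 53.1 and 40.7 CPM at 24 h, against 20.2, 14.5 and 14.1 CPM at 12 h, and rose by 1.44 ± 0.23 (adjusted p = 0.00178). OSM34, an osmotin-like defence protein, had 93.6, 60.8 and 87.3 CPM at 24 h, against 40.5, 33.6 and 34.4 CPM at 12 h, and rose by 1.15 ± 0.17 (adjusted p = 0.00108). Both passed without any 1 library. WRKY33 (0.74, adjusted p = 0.0274) and WRKY18 (0.98, adjusted p = 0.0447), factors of the defence response, each did not pass without mock 24 h replicate 2 or without mock 12 h replicate 1 or 2. WRKY33 was also lost without mock 12 h replicate 3, and WRKY18 without mock 24 h replicate 3. ACS6, a wound- and touch-inducible enzyme of ethylene synthesis, had 37.9, 62.4 and 54.2 CPM at 24 h, against 23.1, 20.5 and 19.2 CPM at 12 h, and rose by 1.3 ± 0.20 (adjusted p = 0.00124).

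A set of 17 called genes known from rapid responses to touch, wounding or elicitors was put together after their values were seen, so its direction is a description: ZAT10, WRKY33, WRKY18, ACS6, XTH22, the calmodulin-like TCH3 and CML37, the CCCH zinc finger genes SZF1 and CZF1, the deadenylase CAF1a, the ethylene response factors ERF2, ERF11 and ERF104, the ubiquitin ligase PUB19, the kinase MKK9, BAP1 and HSPRO2. Their log2 fold changes ran from 0.664 to 2.5. SZF1 had 53.7, 96.7 and 66.1 CPM at 24 h, against 25.9, 24.8 and 23.1 CPM at 12 h. Mock 24 h replicate 2 was the highest of the 3 libraries at 24 h in 14 of the 17 genes, against 42 of the 130 genes called higher, and 8 of the 17 passed without it. Without each of the 6 libraries in turn, 6 passed throughout: ZAT10, ERF11, PUB19, SZF1, ACS6 and XTH22. Before treatment SZF1 had 156 to 212 CPM and ACS6 had 129 to 221 CPM, above their levels at 24 h.

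Other genes named by rule among the largest increases were GolS4, a galactinol synthase of raffinose synthesis (2.36, adjusted p = 0.00107), SP1L2, a SPIRAL1-like microtubule protein (2.33, adjusted p = 0.0175), and PA2, a peroxidase (1.91, adjusted p = 0.0393). Among the largest decreases were CYP86A2, a fatty acid hydroxylase of cutin synthesis (−1.26, adjusted p = 0.00687), QRT1, a pectin methylesterase (−1.23, adjusted p = 0.038), and MYB54, a factor linked to secondary walls (−1.12, adjusted p = 0.0291). UGT73D1 (−0.98), WNK9 (−0.96), AILP1 (−0.94) and GSTL1 (−0.84) fell by less. Of these 10 genes GolS4 and CYP86A2 passed without any 1 of the 6 libraries, and SP1L2 passed except without mock 12 h replicate 1 or 2. PA2, QRT1 and WNK9 lost the call in all 6 such fits (adjusted p up to 0.22, 0.208 and 0.12), and MYB54, UGT73D1, AILP1 and GSTL1 in 5 of the 6 (up to 0.188, 0.168, 0.294 and 0.254). Of genes without a symbol, chosen after their values were seen, AT4G33720, annotated as a cysteine-rich secretory (CAP) protein, had 39.8, 25.9 and 11.2 CPM at 24 h, against 1.86, 4.36 and 1.61 CPM at 12 h, a log2 fold change of 3.29 (adjusted p = 1e-04). AT3G55920, a cyclophilin-like gene, averaged 19.4 ± 1.64 CPM at 24 h and 2.81 ± 0.615 CPM at 12 h (SD, n = 3 each). AT5G18840, annotated as a major facilitator superfamily protein, had 56.3, 58.8 and 49 CPM at 24 h, against 17.3, 19.5 and 14.1 CPM at 12 h. All 3 passed without any 1 of the 6 libraries, with adjusted p values of at most 0.00347 for AT4G33720, 0.00525 for AT3G55920 and 0.000536 for AT5G18840. AT2G06995 had 53 reads at 24 h and 0 reads at 12 h, at least 5.77-fold higher with a floor of 3 counts per library. It lost the call in every fit that left out 1 mock library (adjusted p up to 0.142).

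Of 36 lists, 26 with 416 tested genes had no called member. With 0.878% of all genes called and 3 to 39 genes tested in each, few or no calls per list is also what that background gives, so nothing is read from it. Their median log2 fold changes lay between −0.385 and 0.323. They covered auxin response, cytokinin, nitrogen, sulfur, phosphate, light signalling, the mitotic cell cycle, DNA replication, the root meristem and ribosome biogenesis, among others. The cyclin CYCB1;1, a mark of dividing cells, had 11.4, 13.7 and 20.6 CPM at 24 h, against 16.8, 11.9 and 16.9 CPM at 12 h, with a log2 fold change of 0.00 ± 0.19. The cytokinin response gene ARR5 (0.39 ± 0.20), the auxin repressor IAA14 (−0.28 ± 0.17), the nitrate transporter NRT2.1 (0.03 ± 0.33) and the CEP receptor CEPR1 (−0.02 ± 0.21) did not pass either. The locus AT5G66815, entered as CEP5 in the CEP list, a name the reference does not carry, had 11.6, 9 and 6.72 CPM at 24 h, against 9.55, 7.46 and 8.88 CPM at 12 h. With 3 libraries a time, a p that misses the threshold does not show that a gene stayed level.

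**Figure D4:**
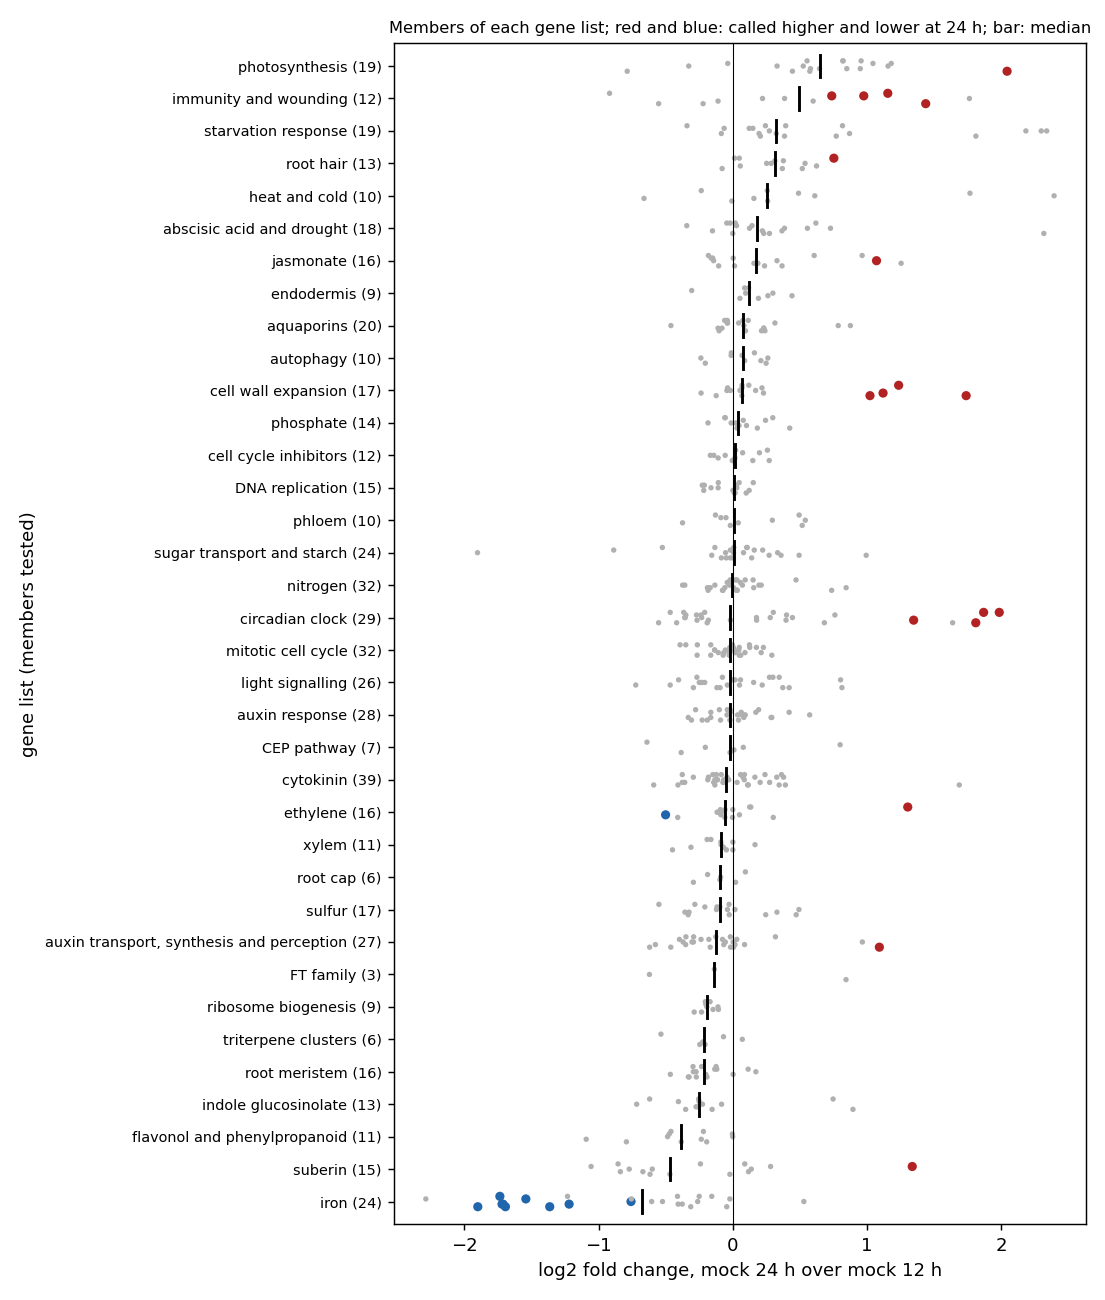
Log2 fold change of mock 24 h over mock 12 h (horizontal axis) for every tested member of 36 gene lists (rows, with the number tested), ordered by the list's median (bar). Red and blue points are called members; the iron row at the bottom holds 9 blue points, and 26 rows hold grey points only.

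In 3 further lists a single member rose, of 15 tested for suberin, 16 for jasmonate and 27 for auxin transport, synthesis and perception. Of all genes tested 0.652% rose, and 1 call in a list this small is not read as a result about the list. FAR1 (AT5G22500) is a fatty acid reductase of suberin synthesis (1.34, edgeR adjusted p = 0.0192, in a list with a median of −0.47). CYP94B3 breaks down the active jasmonate (1.07, adjusted p = 0.0112), and YUC5 is an enzyme of auxin synthesis (1.09, adjusted p = 0.0168). None of these 3 passed without mock 24 h replicate 2 or mock 12 h replicate 3, nor FAR1 without mock 24 h replicate 1, FAR1 and YUC5 without mock 12 h replicate 1, and CYP94B3 without mock 12 h replicate 2. In the photosynthesis list, used as a mark of shoot-type or greening tissue, LHCB2.1 alone rose (2.04, adjusted p = 0.0492, lost when any 1 library was left out, and with reads that near-identical copies may share) among 19 tested members, 16 of which were above 0, with a median of 0.65. The list's summed level was 737 to 987 CPM at 24 h and 436 to 544 CPM at 12 h, with a highest value of 3560 CPM over the 21 libraries, and its part in the changes of the clock genes, which leaf tissue also expresses, was not tested. RBCS1A, a small subunit of Rubisco, had 121, 113 and 93.9 CPM at 24 h, against 69.3, 81.8 and 58.6 CPM at 12 h (0.65 ± 0.32, adjusted p = 0.681). ASN1, the dark- and starvation-induced asparagine synthetase, had 3.12, 5.28 and 7 CPM at 24 h, against 1.63, 1.11 and 0.35 CPM at 12 h, with no overlap and an adjusted p of 0.122. None of the 19 starvation genes passed, with a median of 0.32. SWEET12, a sucrose exporter, was near 0 at both times, with 0.0781, 0.0677 and 0.286 CPM at 24 h, against 0.621, 0.961 and 0.14 CPM at 12 h. ATC, which resembles the flowering repressor TFL1, had 42.3, 45.6 and 44.9 CPM at 24 h, against 67.1, 72.5 and 64.9 CPM at 12 h, which were apart but not called (−0.62 ± 0.23, adjusted p = 0.35).

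The same interval was also sampled in AtCEP5-treated roots, in 6 libraries that share none with the mock comparison. There 384 genes passed at 24 h against 12 h (1.93%), 155 higher (0.777%) and 229 lower (1.15%). Of the 130 genes higher in mock, 126 were above 0 with AtCEP5 and 59 were called higher. Of the 45 lower in mock, all 45 were below 0 and 38 were called lower. Of all genes tested, 52.7% were above 0 with AtCEP5. No gene was called in opposite directions, and the 97 genes called alike were 55.4% of those called in mock and 25.3% of those called with AtCEP5. For the genes higher in mock the median change was 1.23 in mock and 0.875 with AtCEP5, and for those lower in mock −1.23 and −1.49. Across all genes tested the changes had a Pearson correlation of 0.381 and a Spearman correlation of 0.296, given as a description since genes are not independent.

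All 9 iron genes called in mock also fell with AtCEP5, with log2 fold changes of −2.45 to −1.1 there. IRT1 had 115, 133 and 150 CPM at 24 h of AtCEP5, against 452, 689 and 949 CPM at 12 h. FIT (−1.02, adjusted p = 0.00195) and BHLH101 (−2.22, adjusted p = 0.00117), which missed the threshold in mock, passed with AtCEP5, but for neither did the difference between the treatments pass (adjusted p = 1 in each). CCA1 had 16.2, 12.2 and 8.45 CPM at 24 h of AtCEP5, against 8.42, 6.14 and 5.76 CPM at 12 h, a change of 0.86 ± 0.31 that did not pass (adjusted p = 0.223). Its difference from the change in mock, 1.13 ± 0.44, did not pass either (adjusted p = 1). Of the 17 rapid response genes 15 were above 0 with AtCEP5 and 1, PUB19, was called higher, while none passed the test of the difference.

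**Figure D5:**
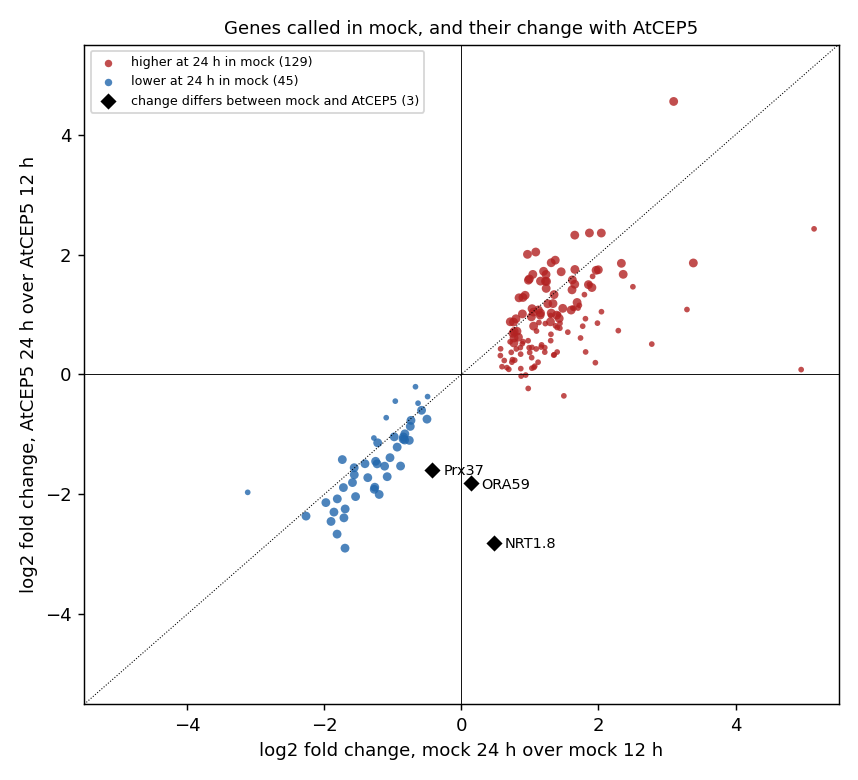
Log2 fold change of 24 h over 12 h with mock (horizontal axis) and with AtCEP5 (vertical axis) for 174 of the 175 genes called in mock, AT2G06995 being left out because it had no reads in mock at 12 h. Larger points were also called with AtCEP5, the dotted line marks equal changes, and black diamonds are the 3 genes whose changes differed.

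The test of the difference itself, the mock change minus the AtCEP5 change, passed in 3 genes of 19938 (0.015%). At an unadjusted p of 0.05, 802 passed, fewer than that threshold lets through on average when no gene differs. NRT1.8, a nitrate transporter that unloads xylem sap, had 2.73, 3.32 and 2.36 CPM at 24 h of mock and 2.8, 1.7 and 1.61 CPM at 12 h of mock, against 5.41, 3.7 and 3.27 CPM at 24 h and 27.4, 32.2 and 27 CPM at 12 h of AtCEP5. ORA59, a factor of ethylene and jasmonate defence, had 12.7, 9.34 and 8.93 CPM at 24 h of mock and 8.85, 10 and 9.3 CPM at 12 h of mock, against 15.5, 11.5 and 13.8 CPM at 24 h and 59, 47.5 and 37.2 CPM at 12 h of AtCEP5. In both genes the 12 h AtCEP5 libraries were the high ones and the mock libraries differed little between the times. Prx37, a class III peroxidase, had 111, 92.9 and 77.5 CPM at 24 h of mock and 112, 139 and 126 CPM at 12 h of mock, against 83.9, 85 and 80.6 CPM at 24 h and 237, 250 and 267 CPM at 12 h of AtCEP5. The differences were 3.27 ± 0.38 for NRT1.8 (adjusted p = 0.000375), 1.95 ± 0.33 for ORA59 (adjusted p = 0.0361) and 1.17 ± 0.18 for Prx37 (adjusted p = 0.0145). None of the 3 was called in mock. Leaving out mock 24 h replicate 1, mock 12 h replicate 1 or 3, or AtCEP5 24 h replicate 2 or 3 gave 1 such gene, leaving out AtCEP5 24 h replicate 1 gave 5 and AtCEP5 12 h replicate 3 gave 7. NRT1.8 passed in each of the 12 fits that left out a library, whereas ORA59 lost its call in 9 of them and Prx37 in 5.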

How the data were processed

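Total RNA of roots was extracted with TRIzol, treated with DNase and made into poly-A libraries with a TruSeq kit, per the labels' protocols. STAR 2.7.8a, HTSeq and StringTie 2.1.3 are named in the submitters' processing notes. For the genome build, the annotation and the counting's strand setting the record is: not given in the sources used here. The authors deposited whole-number read counts per gene and FPKM values for all 21 libraries. All 461492 deposited FPKM values above 0 were 10 times the FPKM recomputed from the counts and lengths (relative tolerance 0.001), so FPKM levels printed here are the deposited values divided by 10.

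Of 32833 genes, 19938 passed edgeR's expression filter. Counts were scaled with TMM factors and fitted with edgeR 4.0.16 (R 4.3.3) by the quasi-likelihood test over all 7 groups, with 14 residual degrees of freedom, no covariate and Benjamini-Hochberg adjustment; the threshold was an adjusted p of 0.05. The SE of a log2 fold change was derived as the size of the change divided by the square root of that test's F statistic. The pipeline was tested on simulated data. DESeq2 1.42.0, limma 3.58.1 on the deposited FPKM, other scalings and filters, a replicate block and leaving out each library were alternatives. Loci and names came from RefSeq TAIR10.1, where 32548 genes (99.1%) had a locus.

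Genes were named by a rule: with a symbol, non-overlapping groups and a mean of at least 1 CPM, up to 15 called genes with the largest change in each direction, up to 3 called genes of each of 36 lists, 17 genes whatever their p, and up to 5 genes in each direction for the difference from AtCEP5. It gave 61 genes, and genes outside it are said to be chosen after their values were seen or are members of a list. The comparison, the lists and the rule were chosen with earlier results of these data known. One gene of the lists is not reported here.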

Additional observations from a re-analysis of the deposited data

Results flagged for a closer look

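For 3 genes the change between 12 h and 24 h differed between mock and AtCEP5 roots by the test of the difference itself (edgeR's quasi-likelihood test, adjusted over all genes). The mock change minus the AtCEP5 change was 3.27 ± 0.382 on the log2 scale for NRT1.8 (SE, adjusted p = 0.000375), which passed under every alternative run. It was 1.95 ± 0.327 for ORA59 (adjusted p = 0.0361) and 1.17 ± 0.18 for Prx37 (adjusted p = 0.0145). Of 20 alternatives, ORA59 lost its call in 9, each leaving out 1 library (adjusted p up to 0.234), and Prx37 in 6, which were 5 such fits and the replicate block (up to 0.163). In all 3 genes the AtCEP5 libraries at 24 h were lower than those at 12 h, and the change in mock did not pass.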

How the results depend on the processing

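Of the 46 called genes named by rule, 17 kept their call and direction under every alternative and 29 lost the call under at least 1; none reversed, and of 15 not called ASN1, ATC and RBCS1A passed under some. DESeq2 called 326 genes in mock (233 higher, 93 lower), 621 with AtCEP5 and 9 for the difference. On deposited FPKM + 1 on the log2 scale without a filter, limma called 89 in mock (72 higher, 17 lower), with 3 iron and 2 clock genes. The difference gave 5 genes without the filter on low counts and 5 with only the libraries of the contrast. Leaving out 1 library gave 67 to 188 calls in mock (51 to 120 higher, 15 to 71 lower), 4 to 8 iron and 1 to 3 clock genes, 161 to 337 calls with AtCEP5 and 1 to 7 for the difference. The cause of these shifts was not tested. No alternative moved the median of all genes by over 0.1 on the log2 scale. With 3 libraries a time, small changes may be missed.

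The labels number the replicates alike, but same-numbered mock libraries at 24 h and 12 h had residual correlations of 0.0978, 0.0683 and 0.0573, under the 0.1 set for pairing, so they were not treated as pairs. With the replicate number as a block, in fits of only the libraries of the contrast, 318 genes were called in mock (217 higher, 101 lower). Such fits called 126 with AtCEP5 and 2 for the difference. Without the block, the same libraries gave 179 calls in mock (136 higher, 43 lower), 297 with AtCEP5 and 5 for the difference.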
